A study of Equus caballus with 16 samples.

Results

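Extracellular vesicles of mare follicular fluid (FF-EVs) were compared between libraries rich and poor in miR-9a. Libraries were chosen by a measured value, their own miR-9a level: a library was miR-9a-high when miR-9a exceeded 4000 CPM (read counts scaled to library size) and miR-9a-low when it did not. Of the 16 libraries of the series, 9 were miR-9a-high (SAN_1, SAN_2, SAN_3, SOV_4, SUM_1, SUM_4, FOV_2, FOV_3 and FOV_4) and 7 were miR-9a-low (SAN_4, SOV_1, SOV_2, SOV_3, SUM_2, SUM_3 and FOV_1). Season was kept as a covariate, and the 280 other miRNAs whose mean exceeded 10 CPM in any season were tested.

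The study made 4 small-RNA libraries of FF-EVs in each of 4 seasons: spring anovulatory (SAN, March), spring ovulatory (SOV, April to May), summer (SUM, June to July) and fall ovulatory (FOV, September). Fluid came from preovulatory follicles of 30 to 35 mm in mares aged 8 to 14 years, whose earlier follicles had been ablated so that a new wave would start. Each library combined fluids of 2 or 3 mares, and the labels do not give which mares entered which library. The study used fewer mares than the libraries pooled fluids, so some mares stand behind several libraries. The tests treat the libraries as independent. No treatment distinguished miR-9a-high from miR-9a-low libraries. They are a division of these samples by one of their own values, and the p values describe how other miRNAs moved with that division among these libraries.

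MicroRNAs are short RNAs that pair with messenger RNAs, mostly through the seed near their 5′ end, and lower the output of those messages. MiR-9 is among the most abundant miRNAs of the vertebrate brain, where it acts in the passage of neural progenitors to neurons. In follicular fluid, vesicles carry miRNAs from granulosa and theca cells and from the blood plasma that filters into the follicle. More vesicles from one source and more of a miRNA per vesicle cannot be told apart in such preparations.

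The mature sequences of miR-9a, of the 10 miRNAs that passed the test and of 4 relatives are shown because several called miRNAs share a seed (bases 2 to 8, in capitals) with relatives that did not pass, and because some relatives differ by so few bases that reads could be assigned to either. The sequences are those the study lists for equine miRNAs, 5′ to 3′ and written with T, and 278 of the 280 tested miRNAs had one. The seed of miR-9a occurred in 0 of the 278.
miR-9a: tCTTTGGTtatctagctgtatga
miR-130b: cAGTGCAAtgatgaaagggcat
miR-130a: cAGTGCAAtgttaaaagggcat
miR-20b: cAAAGTGCtcatagtgcaggtag
miR-17: cAAAGTGCttacagtgcaggtag
miR-20a: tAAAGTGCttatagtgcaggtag
miR-363: aATTGCACggtatccatctgta
miR-92a: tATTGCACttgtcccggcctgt
miR-302b: tAAGTGCTtccatgttttagtag
miR-135a: tATGGCTTtttattcctatgtga
miR-135b: tATGGCTTttcattcctatgtga
miR-124: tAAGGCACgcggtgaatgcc
miR-129a-5p: cTTTTTGCggtctgggcttgc
miR-338-5p: aACAATATcctggtgctgagtg
miR-21: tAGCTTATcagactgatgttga

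MiR-9a itself is described without a test. In SAN it stood at 27188, 17563 and 14267 CPM in the 3 miR-9a-high libraries and at 1704 CPM in SAN_4. In SOV only SOV_4 was high, at 23218 CPM, beside 2592, 627 and 644 CPM in SOV_1, SOV_2 and SOV_3. SUM held 2 libraries of each class, with 19711 (SUM_1) and 12702 CPM (SUM_4) beside 177 (SUM_2) and 249 CPM (SUM_3). Both classes occurred in each season, but SAN, SOV and FOV had a single library on one side. In FOV, FOV_2, FOV_3 and FOV_4 reached 11324, 12521 and 4371 CPM, and FOV_1 stood at 603 CPM. The study dropped FOV_1 after a principal component analysis in which this library resembled the SAN group. It was kept here as the only miR-9a-low library of FOV, and every class difference in FOV rests on it. The values nearest the threshold were 4371 CPM (FOV_4) just inside and 2592 CPM (SOV_1) just outside. With season adjusted for, the classes lay 4.64 log2 units apart in miR-9a, which made up between 0.0184% (SUM_2) and 2.47% (SAN_1) of the miRNA reads of a library.

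**Figure D1:**
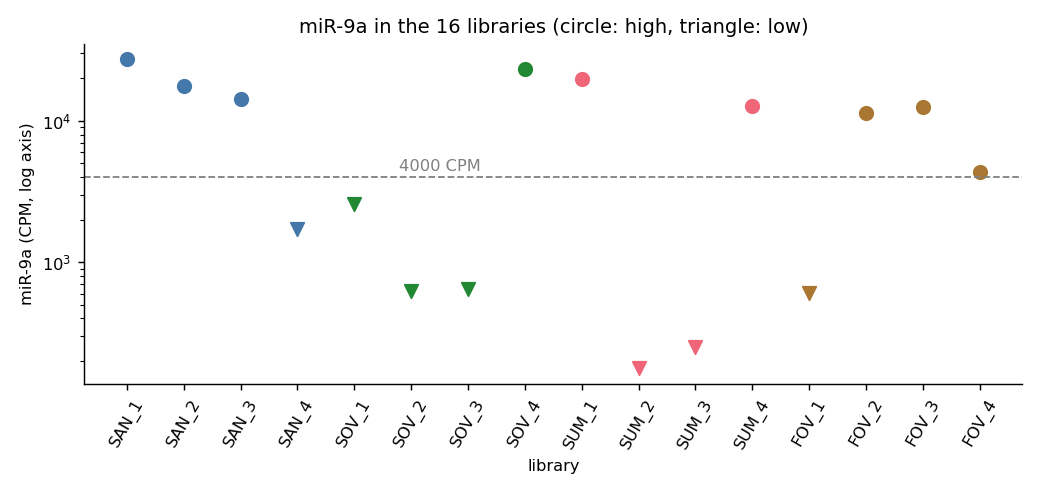
MiR-9a in CPM (log axis) in each of the 16 libraries, ordered by season, with circles for miR-9a-high and triangles for miR-9a-low libraries and a dashed line at 4000 CPM. FOV_4 (4371 CPM) is the high library closest to the line and SOV_1 (2592 CPM) the closest low one.

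Values are TMM-adjusted CPM, and 1 read stood for 7.91 to 35.6 CPM, so that low values rest on few reads. Reads assigned to miRNAs numbered 36328 to 112146 in miR-9a-high libraries (median 48306) and 27131 to 94216 in miR-9a-low libraries (median 55086), a season-adjusted difference of 0.15 log2 units (exact two-sided permutation test within seasons, p = 0.693). The 384 arrangements allow no p below 0.0026. A library detected 199 to 264 miRNAs in the high class (median 231) and 180 to 225 in the low class (median 210), a difference of 24.7 (exact permutation p = 0.115, adjusted p = 0.173 over these 3 library measures). The classes did differ in how concentrated the signal was. The 20 most abundant miRNAs took 78.0% to 88.5% of the signal in miR-9a-high libraries (median 82.8%) and 83.2% to 89.8% in miR-9a-low libraries (median 87.9%), a difference of -3.99 percentage points (exact permutation p = 0.00521, adjusted p = 0.0156). This share counts miR-21, which is called lower in miR-9a-high libraries below, and miR-9a wherever it ranks among the 20. MiR-21 averaged 49128 CPM in miR-9a-high and 136877 CPM in miR-9a-low libraries. The share is thus not independent of the division or of the calls. The part of depth and of this concentration in the results on single miRNAs was not tested.

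Between the classes, 10 of the 280 miRNAs (3.57%) passed an adjusted p under 0.05 with a fold change (FC) of at least 2. In miR-9a-high libraries, 9 were higher (3.21%), namely miR-130b, miR-135a, miR-20b, miR-124, miR-363, miR-129a-5p, miR-17, miR-302b and miR-338-5p, and 1 was lower (0.357%), miR-21. The season-adjusted log2 FC over all 280 had a median of 0.29, with 181 above 0 and 99 below, and the changes of single miRNAs stand against that background. This median was 0.17 with median-of-ratios scaling and 0.39 with equal totals, and each of the 10 calls held under both scalings. When each season was instead divided into its 2 highest and 2 lowest libraries by miR-9a, 7 miRNAs were called and 3 of the 10 were among them (miR-124, miR-363 and miR-17), with adjusted p = 0.134 for miR-130b. Of the 280, 28 had 0 reads in the miR-9a-low class (10%, of which 3 were called) and 0 had none in the miR-9a-high class, and those 28 could pass the filter of 10 CPM only through miR-9a-high libraries. The called miR-130b, miR-135a and miR-338-5p had 2, 1 and 2 reads in the miR-9a-low class. They too reached 10 CPM in a season only with the reads of miR-9a-high libraries, which favoured a direction above 0 beforehand. At an unadjusted p under 0.05, 31 miRNAs were higher (11.1%) and 9 lower (3.21%). Adjusted p values of single miRNAs come from limma with Benjamini-Hochberg adjustment over the 280. FC values are on the log2(CPM + 1) scale, on which they depend on the added 1 CPM where a class has almost no reads.

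**Figure D2:**
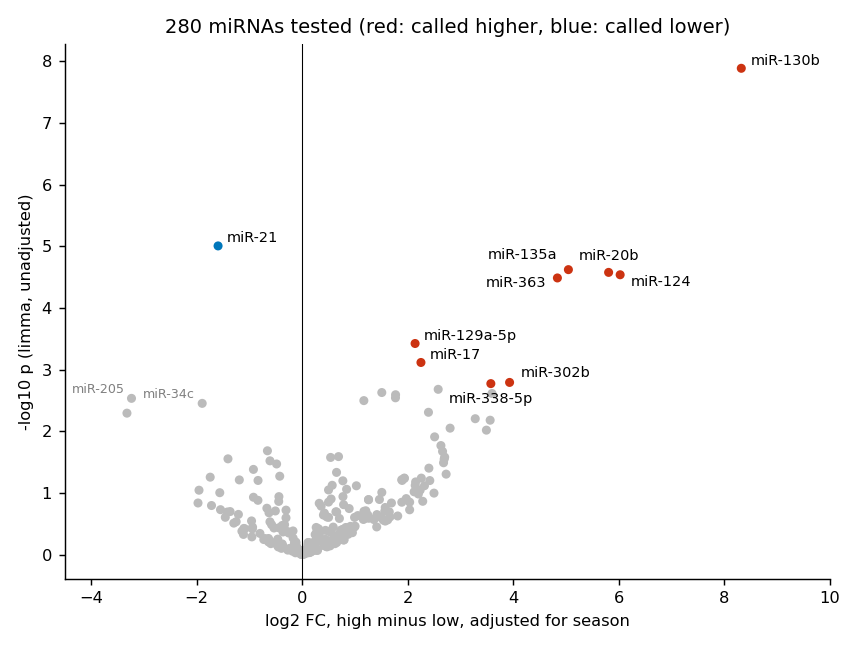
Season-adjusted log2 FC (miR-9a-high minus miR-9a-low, x axis) against -log10 of the unadjusted limma p (y axis) for the 280 miRNAs, with the 9 called higher in red and the 1 called lower in blue. MiR-130b stands alone at the upper right (log2 FC 8.32) and miR-21 alone at the upper left (-1.59).

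MiR-130b, of the miR-130 and miR-301 family, had the smallest p of the comparison. It measured 94.9 to 2678 CPM in miR-9a-high libraries (median 893) and 0 to 20.8 CPM in miR-9a-low libraries (median 0). All 9 miR-9a-high libraries lay above all 7 miR-9a-low ones, an order that 4 of the 280 miRNAs showed (1.43%). The reads were 489 against 2, the latter being single reads in SOV_2 and SOV_3, and their pooled ratio was 151 with a 95% exact interval of 41.5 to 1247 that covers counting error only. In the fit miR-130b differed by a log2 FC of 8.32 (SE 0.88, adjusted p = 3.65e-06). The SAN libraries differed by 9.47 between classes, those of SOV by 6.84, of SUM by 6.68 and of FOV by 10.83, and the 2 miR-9a-high SUM libraries had the lowest levels of their class (109 and 94.9 CPM).

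Relatives with the seed of miR-130b did not pass. MiR-130a, 2 edits away from miR-130b, measured 45.3 to 164 CPM in miR-9a-high and 0 to 110.3 CPM in miR-9a-low libraries (54 and 24 reads, log2 FC 1.46, adjusted p = 0.494). Its classes overlapped, and 6 of the 7 miR-9a-low libraries held reads of it, whereas miR-130b had reads in 2 of the 7. MiR-454 reached 18.2 to 201 CPM against 0 to 35.8 CPM (log2 FC 2.51, adjusted p = 0.138), and miR-301b-3p had 7 reads in the high class and 0 in the low class (adjusted p = 0.108).

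Called miRNAs also came from the miR-17 and miR-92a family, paralogous clusters best known for promoting cell proliferation. In mammals miR-20b and miR-363 are encoded together in the X-linked cluster that starts with miR-106a, and miR-17 in the cluster that ends with miR-92a. Of the 12 family members tested, 12 had a log2 FC above 0 (100%, against 64.6% of all 280). Of the 12, 3 were called higher (3.21% of all 280 were) and 0 lower, and their median was 1.19, beside 0.29 over all 280. The called miR-20b had 0 reads in the miR-9a-low class and could pass the filter only through miR-9a-high libraries. Its direction was thus fixed beforehand and adds to these counts. MiR-18a, read in that class only in FOV_1, also reached 10 CPM in a season only with miR-9a-high libraries. With median-of-ratios scaling 11 of the 12 were above 0. Without the season SUM 8 of the 12 were, with a median of 0.41 and 1 call.

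MiR-363 measured 127 to 1517 CPM in miR-9a-high libraries (median 531) and 0 to 105 CPM in miR-9a-low libraries (median 29.6), from 465 and 14 reads. The classes did not overlap. Its log2 FC was 4.83 (SE 0.89, adjusted p = 0.00153), with a difference of 1.37 among SAN libraries, 2.86 among SOV, 5.04 among SUM and 10.00 among FOV. The size thus varied widely with season, and the FOV value rests on FOV_1 alone, where miR-363 had no read and 3 reads would have been 54.8 CPM. Without FOV_1 the log2 FC was 3.29 (adjusted p = 0.0120), and without the season SUM it no longer passed (log2 FC 4.74, adjusted p = 0.0880). Members with the seed of miR-363 did not pass: miR-92a measured 3016 to 12362 CPM against 2696 to 7853 CPM (log2 FC 0.54, adjusted p = 0.240), miR-25 had a log2 FC of 0.57 (adjusted p = 0.383), miR-92b 0.77 (adjusted p = 0.349) and miR-32 2.04 (adjusted p = 0.572).

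MiR-20b had 53 reads in 8 of the 9 miR-9a-high libraries (0 to 228 CPM, median 63.3) and 0 reads in the miR-9a-low class. Against 3 reads over that class (8.02 CPM) its mean was at least 9.76-fold higher, and the fitted log2 FC was 5.80 (SE 1.06, adjusted p = 0.00153). The exception among the high libraries was SAN_2, which had no read of it. MiR-17 was present everywhere, at 77.2 to 3381 CPM in miR-9a-high libraries (median 531) and 104 to 262 CPM in miR-9a-low libraries (median 145), and its log2 FC was 2.25 (SE 0.56, adjusted p = 0.0269). Its classes overlapped because FOV_4 held only 77.2 CPM, and its highest values, 3381 and 2215 CPM, were those of SUM_1 and SUM_4. The call for miR-17 was lost without the season SUM (log2 FC 1.33, adjusted p = 0.445) and when 1 of 7 libraries was left out (SAN_3, SOV_4, FOV_3 or any of SUM), at adjusted p values of up to 0.105. MiR-20a, which like miR-20b lies 2 edits from miR-17, did not pass (log2 FC 1.77, adjusted p = 0.0512) but was called under 8 of 16 alternatives, DESeq2 among them (adjusted p = 0.0322). Reads of these relatives may have been assigned to one another.

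MiR-302b belongs to the cluster typical of pluripotent stem cells, and it was called on 29 reads. These lay in 7 of the 9 miR-9a-high libraries (0 to 335 CPM, median 38.6), with 0 reads in the low class, a mean at least 8.37-fold higher than 3 reads over that class. All 4 SUM libraries of either class were without a read, and FOV_3 alone gave 15 of the 29. The log2 FC was 3.93 (SE 1.07, adjusted p = 0.0473), a call that ended in 9 of the 16 fits without 1 library (SAN_1, SAN_2, SAN_4, FOV_1, FOV_2 or any of SOV, adjusted p of up to 0.162), with edgeR (adjusted p = 0.0674) and with DESeq2 (adjusted p = 0.327). The other members of the miR-302 and miR-371 family, with 3 to 11 reads each, were not called.

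Neural miRNAs were described as a list of 35, because miR-9a is one of them by its known expression, and 30 were tested. Of these, 27 had a log2 FC above 0 (90%, against 64.6% of all 280), 11 were higher at an unadjusted p under 0.05 (11.1% of all 280 were) and 0 lower. The calls were miR-124, miR-135a and miR-129a-5p, 3 of the 30, beside 3.21% of all 280 called higher. MiR-124, miR-488, miR-592, miR-1298, miR-153 and miR-383 had 0 reads in the miR-9a-low class. They could pass the filter only through miR-9a-high libraries, so their direction was fixed beforehand and adds to these counts. MiR-135a, miR-138, miR-129b-3p, miR-212, miR-129a-3p, miR-338-3p and miR-490-3p had few reads in the miR-9a-low class. They also reached 10 CPM in a season only with the reads of miR-9a-high libraries, which favoured the same direction. The median log2 FC of the list was 1.89, or 1.78 with members that lacked reads in one class set to their bound, beside 0.29 over all miRNAs. The median difference of the list within seasons was 4.18 in SUM, 1.48 in FOV, 0.28 in SAN and 0.11 in SOV, beside 0.64, 0.19, 0 and 0 over all 280. A difference above 0 in all 4 seasons was seen for 8 of the 30, beside 24 of the 280 (8.57%). Without the season SUM the median of the list was 0.49, with 23 of 30 above 0, and the number of calls was again 3.

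MiR-124, the most neuron-enriched of mammalian miRNAs, had 66 reads in 8 of the 9 miR-9a-high libraries (0 to 290.2 CPM, median 90.8) and 0 reads in the 7 miR-9a-low libraries. Its mean was at least 13.6-fold higher than 3 reads over the low class, and the log2 FC was 6.02 (SE 1.10, adjusted p = 0.00153). It had no read in SAN_3, where 3 reads are 54.5 CPM. The call held when each library was left out in turn, with a largest adjusted p of 0.0123.

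MiR-135a, also expressed in brain, measured 23.7 to 136 CPM in miR-9a-high libraries (median 63.7) and was at 0 in 6 of the 7 miR-9a-low libraries, with 1 read (12.3 CPM) in SAN_4. The classes did not overlap, although the reads were only 39 against 1 (pooled ratio 24.0, 95% exact interval 4.06 to 973). Its log2 FC was 5.04 (SE 0.91, adjusted p = 0.00153). MiR-135b, which differs from miR-135a by 1 edit and has the same seed, showed 0 to 63.7 CPM against 12.3 to 91.3 CPM and a log2 FC of -0.25 (adjusted p = 0.954). Reads of miR-135b were present in all 7 miR-9a-low libraries, and those of miR-135a in 1 of the 7.

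MiR-129a-5p, enriched in brain, rested on more reads than the preceding pair, 397 and 82. It measured 484 to 1049 CPM in miR-9a-high libraries (median 636) and 14.8 to 430 CPM in miR-9a-low libraries (median 238), without overlap. The log2 FC was 2.14 (SE 0.50, adjusted p = 0.0151), and within seasons it ran from 0.91 (SOV) to 3.67 (SUM), with 1.73 in both SAN and FOV. Without SUM_1 the adjusted p was 0.0530.

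MiR-338-5p, from an intron of a gene expressed in neurons, was called on 27 reads against 2. It measured 18.2 to 69.4 CPM in miR-9a-high libraries (median 42.5) and 0 to 18.3 CPM in miR-9a-low libraries (median 0), a pooled ratio of 8.31 with a 95% exact interval of 2.09 to 72.1. The log2 FC was 3.57 (SE 0.98, adjusted p = 0.0473). This call held in 5 of the 16 fits that left out 1 library (SAN_3, SAN_4, FOV_1, FOV_3 or FOV_4), had adjusted p values of up to 0.139 in the others, and ended with edgeR (adjusted p = 0.0914) and DESeq2 (adjusted p = 0.237). MiR-338-3p, from the other arm of the same hairpin, had 6 reads against 3 (log2 FC 0.58, adjusted p = 0.893).

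**Figure D3:**
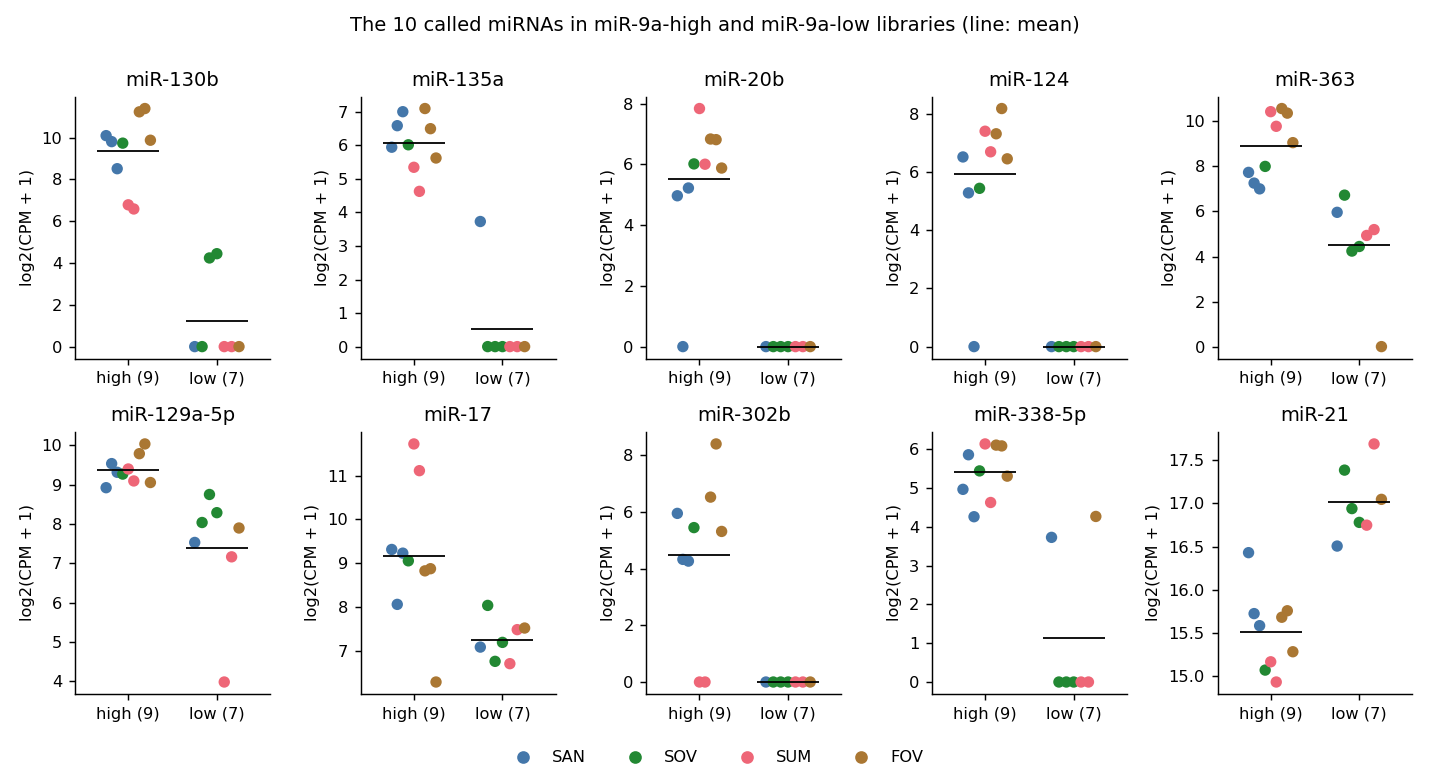
Log2(CPM + 1) of the 10 called miRNAs in the 9 miR-9a-high and 7 miR-9a-low libraries, each point 1 library coloured by season, with a line at the class mean. MiR-130b, miR-135a, miR-363 and miR-129a-5p lie wholly higher and miR-21 wholly lower in the high class, and miR-20b, miR-124 and miR-302b are at 0 in every low library.

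Several other members of the neural list did not pass. MiR-128, which is widespread in neurons, measured 2783 to 24107 CPM in miR-9a-high and 1492 to 17864 CPM in miR-9a-low libraries (log2 FC 0.55, adjusted p = 0.494). In SUM it stood at 17025 to 18015 CPM in SUM_1, SUM_2 and SUM_3 and at 24107 CPM in SUM_4. MiR-125b-5p had a log2 FC of 0.36 (adjusted p = 0.541) and miR-125a-5p of -0.31 (adjusted p = 0.608), with overlapping classes. The values of miR-139-5p (0.40, adjusted p = 0.603), miR-149 (0.44, adjusted p = 0.751), miR-1271a (0.21, adjusted p = 0.936) and miR-95 (1.26, adjusted p = 0.610) also overlapped.

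MiR-132, which is induced by cAMP signalling in neurons and, in mice, in granulosa cells after luteinizing hormone, measured 99.2 to 473 CPM in miR-9a-high libraries (median 242) and 0 to 131 CPM in miR-9a-low libraries (median 89.5). The classes overlapped little and the log2 FC was 2.39, but it did not pass (SE 0.75, adjusted p = 0.0712). DESeq2 on the recovered reads gave it an adjusted p of 0.0123.

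MiR-21 was the 1 miRNA called lower. It is an abundant miRNA that restrains apoptosis, in mouse granulosa cells among others. It measured 31320.0 to 88255 CPM in miR-9a-high libraries (median 49181) and 93044 to 210821 CPM in miR-9a-low libraries (median 125607), and 26709 and 47309 reads stood behind these values. All 9 miR-9a-high libraries lay below all 7 miR-9a-low ones, the only miRNA of the 280 ordered in that direction (0.357%), with a narrow gap between SAN_1 (88255 CPM) and SAN_4 (93044 CPM). The log2 FC was -1.59 (SE 0.27, adjusted p = 0.00139), with SAN libraries at -0.59, SOV at -1.96, SUM at -2.16 and FOV at -1.47. The call held without each library in turn (log2 FC from -1.90 to -1.42) and with edgeR (adjusted p = 0.00103), and it ended with the 2 highest against the 2 lowest libraries of each season (log2 FC -0.80, adjusted p = 0.262).

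Among miRNAs with a mean above 100 CPM, the others with the lowest p in this direction did not pass. MiR-205, an epithelial miRNA, measured 0 to 1178 CPM in miR-9a-high and 20.8 to 1709.7 CPM in miR-9a-low libraries (log2 FC -3.23, SE 0.95, adjusted p = 0.0513). Its within-season differences ran from -6.87 in SOV to 0.11 in FOV, and without FOV_1 it passed. MiR-34c, a p53 target abundant in testis and ciliated epithelia, measured 22.3 to 164 CPM against 44.4 to 564 CPM (log2 FC -1.90, SE 0.57, adjusted p = 0.0550). Its difference was below 0 in each of the 4 seasons, and edgeR (adjusted p = 0.0223) and DESeq2 (adjusted p = 0.000946) called it. MiR-143, the miRNA of smooth muscle and stroma, had a log2 FC of -0.66 (adjusted p = 0.212), miR-196b -1.41 (adjusted p = 0.240) and miR-532-5p -0.61 (adjusted p = 0.249).

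**Figure D4:**
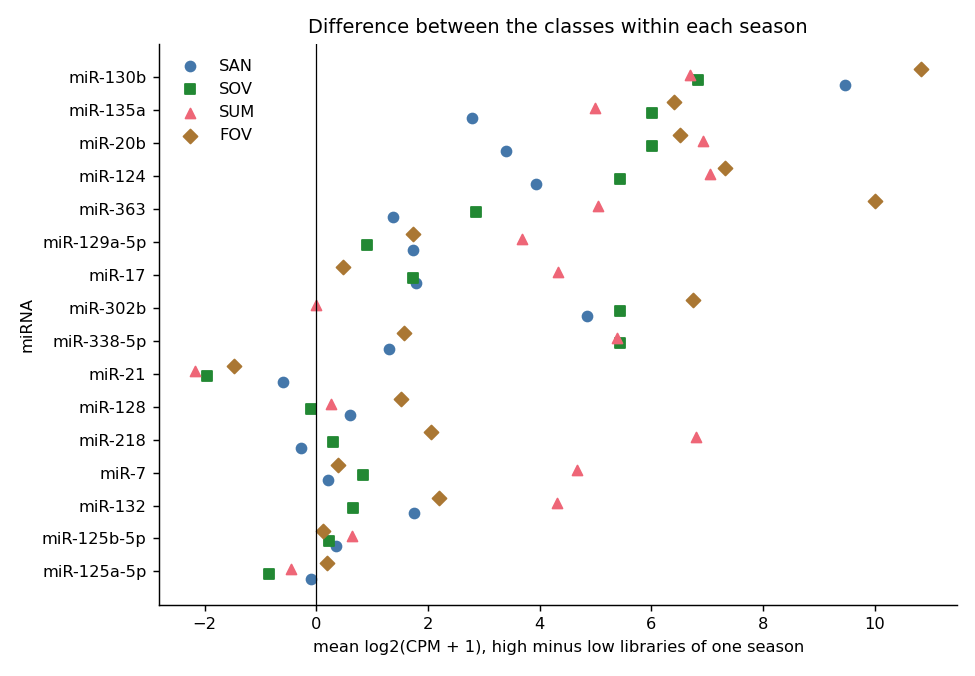
Difference in mean log2(CPM + 1) between miR-9a-high and miR-9a-low libraries of each season (x axis) for the 10 called miRNAs and 6 further neural miRNAs (y axis), where SAN, SOV and FOV have 1 library on one side. MiR-130b is at 6.68 or more in all 4 seasons, and miR-21 is below 0 in all 4. MiR-218 and miR-7 stand farthest to the right in SUM (6.80 and 4.67), with miR-218 at 2.05 in FOV.

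Because SUM had 2 libraries of each class, its class difference was compared with that of the other seasons by an interaction term, and it differed for 13 of the 280 miRNAs (4.64%), in each case towards higher values in the miR-9a-high libraries of SUM. SUM_1 and SUM_4 were also the deeper libraries of that season, with 105466 and 110062 reads against 65120 and 27131 in SUM_2 and SUM_3, and the part of depth was not tested. Without SUM_1 8 of the 13 passed, and without FOV_4 all 13 among 22. Of the 13, miR-218, miR-7, miR-137 and miR-592 are on the neural list and miR-20a, miR-93 and miR-19a in the miR-17 and miR-92a family. Apart from miR-218 and miR-7, these miRNAs were singled out after their values were seen.

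MiR-218, made from introns of the SLIT genes and abundant in motor neurons, reached 60987 CPM (SUM_1) and 38067 CPM (SUM_4), with 399 CPM (SUM_2) and 463 CPM (SUM_3) on the low side. In the other 12 libraries it lay between 1018 and 8548 CPM. The class difference was 6.80 in SUM and 0.70 over the other seasons, an excess of 6.11 (adjusted p = 2.03e-05). Those other seasons were unlike, with -0.27 in SAN, 0.30 in SOV and 2.05 in FOV, where the low side is FOV_1 alone. Over all seasons its log2 FC of 2.58 did not pass (adjusted p = 0.0512).

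MiR-7, known from pituitary, pancreatic islet and other neuroendocrine cells, gave a similar picture: 39848 CPM (SUM_1) and 25436 CPM (SUM_4) on the high side, 1153 CPM (SUM_2) and 1353 CPM (SUM_3) on the low side. Elsewhere it stayed between 1013 and 3785 CPM in both classes. Its difference was 4.67 in SUM and 0.48 in the other seasons, an excess of 4.19 (adjusted p = 6.32e-05), and its log2 FC over all seasons was 1.77 (adjusted p = 0.0513). The reads of SUM_1 and SUM_4 behind these departures were 6151 and 4813 for miR-218 and 4019 and 3216 for miR-7.

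MiR-20a and miR-93 of the miR-17 family showed the same contrast within SUM. MiR-20a stood at 5642 (SUM_1) and 3788 CPM (SUM_4), and at 266 (SUM_2) and 214 CPM (SUM_3), an excess of 3.61 over the other seasons (adjusted p = 0.00291). MiR-93 measured 3877 and 2649.6 CPM against 207 and 285 CPM, an excess of 3.89 (adjusted p = 0.00291). In the other 12 libraries the highest values were 679.8 CPM for miR-20a and 545 CPM for miR-93.

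Several others of the 13 lacked reads in SUM_2 and SUM_3. MiR-199b-5p, of stromal cells, had 0 reads in SUM_2 and 1 read in SUM_3 but 2875 and 1779.6 CPM in SUM_1 and SUM_4, and 454 to 1636 CPM in every other library (excess 9.09, adjusted p = 6.32e-05). MiR-34a had no read in SUM_2 or SUM_3, where 3 reads would be 44.4 and 107 CPM, beside 248 and 174 CPM in SUM_1 and SUM_4, and its difference in the other seasons was -1.38 (excess 9.09, adjusted p = 6.32e-05). MiR-374a, miR-769a-5p, miR-345-5p, miR-19a, miR-137 and miR-592 likewise had no read in SUM_2 or SUM_3, and miR-137 and miR-592 had at most 52.4 and 19.3 CPM outside SUM either, beside 347 and 261 CPM (miR-137) and 317 and 127 CPM (miR-592) in SUM_1 and SUM_4. MiR-199a-3p, by contrast, had reads in all 4 libraries, at 6088, 1390.1, 1460.3 and 3551 CPM in library order (excess 2.26, adjusted p = 0.0124).

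Lists of other sources are given beside the 280, of which 64.6% were above 0, 99 were below 0 and 3.57% were called. With so few members in a list, 0 or 1 call is near that background. The lists are not separate. MiR-132, miR-212 and miR-383 are on both the neural and the granulosa lists. MiR-183, miR-96 and miR-182 are on the granulosa list and in the miR-183 cluster. MiR-92a and miR-25 are on the erythrocyte list and in the miR-17 and miR-92a family. MiR-125b-5p is on the neural and mesenchymal lists, and miR-433 on the neural and DLK1-DIO3 lists. Reads of the granulosa and follicle list were present in all 16 libraries. Of its 17 members tested, 11 were above 0 (64.7%) and 6 below, miR-21 was the 1 call, and the median was 0.20. The summed level of that list was 43168 to 95703 CPM in miR-9a-high libraries and 107192 to 222112 CPM in miR-9a-low libraries, of which miR-21 alone made up most, and miR-378, the next in abundance, had a log2 FC of -0.25 (adjusted p = 0.773).

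Erythrocyte miRNAs showed no call among 7 (3 above 0 and 4 below, median -0.11). Their summed level was 18396 to 41894 CPM in miR-9a-high and 11922 to 86394 CPM in miR-9a-low libraries, and miR-486-5p, the most abundant, measured 2039 to 13462 CPM against 1667 to 67154 CPM (log2 FC -0.11, adjusted p = 0.954). Of 8 leukocyte miRNAs 5 were above 0 and none of the 8 was called, with miR-146a at a log2 FC of 0.65 (adjusted p = 0.334) and miR-146b-5p at 0.50 (adjusted p = 0.605). Without the season SUM, where its difference was -0.49, miR-146a was called higher (log2 FC 1.16, adjusted p = 0.0345). The 2 endothelial miRNAs, miR-126-3p (-0.44, adjusted p = 0.480) and miR-126-5p (-0.84, adjusted p = 0.499), were below 0 and not called.

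Epithelial miRNAs were below 0 in 6 of 7 (median -0.84), and 0 were called. In FOV the direction was the opposite, with 6 of 7 above 0 and a median difference of 0.60. MiR-200b had a log2 FC of -0.92 (adjusted p = 0.306) and miR-184 of -0.54 (adjusted p = 0.731). Among 10 mesenchymal and smooth muscle miRNAs 5 were above 0 and 5 below, with miR-99a at 0.13 (adjusted p = 0.888). Of 5 striated muscle miRNAs 3 were above 0, miR-1 had a log2 FC of -1.19 (adjusted p = 0.349) and miR-206 of 0.99 (adjusted p = 0.605), and of 4 liver miRNAs 1 was, with miR-192 at -0.36 (adjusted p = 0.762) and miR-215 at -0.67 (adjusted p = 0.570).

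The let-7 family, which promotes differentiation, was below 0 in 7 of 7 with a median of only -0.12, and with equal totals 3 of the 7 were above 0. Let-7g had a log2 FC of -0.04 (adjusted p = 0.954) and let-7c of -0.12 (adjusted p = 0.888). The 37 imprinted DLK1-DIO3 miRNAs tested had a median of 0.32, close to the 0.29 of all miRNAs, with 26 above 0, 11 below and 0 called; miR-409-3p was at -0.10 (adjusted p = 0.922) and miR-127 at 0.03 (adjusted p = 0.968). The 3 miRNAs of the miR-183 cluster had a median of 0.31, with miR-183 at 0.31 (adjusted p = 0.734) and miR-182 at 0.06 (adjusted p = 0.954).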

How the data were processed

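The table deposited by the authors holds a signal per miRNA and library, TMM-adjusted CPM. Per the study's methods, reads were trimmed and annotated against equine miRNAs and EquCab3.0 in CLC Genomics Workbench, whereas the submitters' processing notes list bcl2fastq, Bowtie2 2.2.2 and DESeq2, and the sources do not settle which one made the table. Dividing by the smallest value above 0 in each library turned 100% of the values above 0 into whole reads (tolerance 1e-06), 985463 in all, and the columns that name a sample were all 16 used. Of 686 miRNAs listed 324 had a read. No library was a copy of another (lowest chi-square per degree of freedom 8.62 over 120 pairs). Whether the libraries of a season came from separate mares is not given, so p values measure the spread between these libraries.

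The values were analysed in R 4.3.3. Log2(CPM + 1) of 280 miRNAs (mean over 10 CPM in any season, miR-9a left out) was fitted with limma 3.58.1 (intensity trend) on season and miR-9a class over 16 libraries. MiRNAs were called at an FC of 2 or more with an adjusted p below 0.05. A second fit added a term for the class within SUM. Library measures were compared by exact two-sided permutation within seasons, and ratios of reads carry 95% exact intervals for counting error only. Alternatives were a filter at 100 CPM or none, equal totals, median-of-ratios scaling, added constants of 0.25 and 5 CPM, no season term, log2 miR-9a as a regressor, the 2 highest against the 2 lowest libraries of each season, a split at 8000 CPM, FOV_1 or SUM left out, a replicate block, robust moderation, no fold threshold, edgeR 4.0.16 quasi-likelihood and DESeq2 1.42.0 on the recovered reads, and each library left out. The fit was tested on simulated counts of independent libraries without a season effect, with changes set only in miRNAs with a mean above 100 CPM. The called miR-135a, miR-20b, miR-124, miR-302b and miR-338-5p have lower means and lie outside that setting.

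Named miRNAs were miR-9a, every called miRNA, the lowest p values in a direction with fewer than 6 calls (mean above 100 CPM), neural miRNAs with a mean above 100 CPM and the 2 most abundant members of each other list. The classes, lists and tests were chosen with earlier results of these data known. Lists were described by counts and medians, without a test. EV particle measurements and target prediction were not analysed here.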

Additional observations from a re-analysis of the deposited data

Results flagged for a closer look

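Within each season the highest and the lowest of the 4 libraries were compared with the rest for each named miRNA. Of 192 groups of 4 examined, 23 had a library whose gap to the nearest other exceeded Dixon's 95% critical share of the range, a limit that chance passes in about 5% of groups. In 13 of the 23 the library that stood apart was the only one of its miR-9a class in its season. Among called miRNAs these were miR-130b (0 CPM in SAN_4 and 0 in FOV_1), miR-20b (63.7 CPM in SOV_4 and 0 in FOV_1), miR-363 (0 in FOV_1), miR-135a (63.7 CPM in SOV_4), and miR-124, miR-302b and miR-338-5p (42.5 CPM each in SOV_4, which is 2 reads). For these called miRNAs the flag restates the class difference. Where the other libraries of the season had no read, the share of the range is 1 at any count, so the 5% does not apply.

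Other libraries stood apart on miRNAs that were not called. SAN_1 held 30.3 CPM of miR-205 beside 563 to 625 CPM in the other SAN libraries. SUM_4 held 24107 CPM of miR-128 and 75872 CPM of miR-192, and SUM_1 the lowest miR-378 (4809 CPM) and miR-146a (2152 CPM) of its season. SOV_4 held 637 CPM of miR-139-5p and 10536 CPM of miR-146b-5p, SAN_4 held 3016 CPM of miR-146b-5p, SOV_1 held 11571 CPM of miR-126-3p, SOV_2 held 269 CPM of miR-1271a and SOV_3 held 498 CPM of miR-184. In FOV, FOV_4 had 57.9 CPM of miR-95, the only reads of it there, and the lowest miR-126-3p (4429 CPM), and FOV_1 had the highest miR-99a (139400 CPM).

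The class difference in SUM departed from that of the other seasons for 13 miRNAs by the interaction term in limma. The excess of SUM, on the log2 scale, was 6.11 for miR-218, 4.19 for miR-7, 3.61 for miR-20a, 3.89 for miR-93, 9.09 for miR-34a, 9.09 for miR-199b-5p, 8.65 for miR-374a, 7.42 for miR-769a-5p, 7.17 for miR-592, 7.70 for miR-345-5p, 9.29 for miR-137, 8.76 for miR-19a and 2.26 for miR-199a-3p. SUM_2 and SUM_3, the miR-9a-low libraries there, had 0 or 1 read of miR-34a, miR-199b-5p, miR-374a, miR-769a-5p, miR-592, miR-345-5p, miR-137 and miR-19a, and the sizes of those 8 depend on the pseudocount.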

How the results depend on the processing

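The limits lie in depth and balance: 1 read is worth 7.91 to 35.6 CPM, and 3 of the 4 seasons have a single library on one side. MiR-124 was called under all 17 alternatives other than leaving out single libraries, and miR-130b, miR-363, miR-21 and miR-129a-5p under 16 of 17, and miR-135a, miR-20b and miR-17 under 15. MiR-338-5p was called under 8 of 17 and miR-302b under 7 of 17. With the filter of 100 CPM, miR-135a, miR-20b and miR-338-5p were not tested, and they are counted there as not called.

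The count of called miRNAs (10, of them 9 higher and 1 lower) became 18 (16 and 2) with a pseudocount of 5 CPM, 6 (5 higher) with a filter of 100 CPM, 16 (15 higher) with equal totals, 18 (17 higher) with log2 miR-9a as a regressor, and 16 without FOV_1 (3 lower). Calls lower numbered 3 with median-of-ratios scaling, 2 without SUM, 2 with edgeR and 3 with DESeq2. The 13 departures of SUM became 20 with the filter of 100 CPM. Leaving out each library in turn gave 7 (without SUM_1) to 16 calls (without FOV_1), 6 to 14 higher (14 without FOV_4), 1 to 3 lower (3 without SUM_2 or FOV_1), and 8 (without SUM_1) to 22 departures (without FOV_4; 21 without SAN_3). The cause was not tested. Without single libraries the difference in log2 reads ran from -0.13 (without SUM_3) to 0.51, that in miRNAs detected from 17.9 to 35.2 and that in the top 20 share from -5.01 to -2.94 percentage points.

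A replicate block gave 8 calls and 9 departures. Same-numbered libraries of different seasons did not deviate together (median r 0.011 over 24 pairs, of which 4 exceeded 0.1). For libraries of different number the median r was -0.00036 over 72 pairs, of which 12 exceeded 0.1. Such correlations cannot show which libraries share mares, and the labels do not give it. The block ended the calls of miR-302b and miR-338-5p.

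The directions that turned were those of uncalled miRNAs. The log2 FC was -0.023 for miR-99a, -0.089 for miR-182, -0.12 for miR-127 and -0.010 for miR-199a-3p with median-of-ratios scaling, and 0.060 for let-7g and 0.00091 for miR-409-3p with equal totals. It was 0.15 for miR-486-5p, 0.024 for let-7c and 0.28 for miR-409-3p without a season term, 0.14 for let-7g and -0.040 for miR-127 with miR-9a as a regressor, and 0.11 for miR-486-5p with the replicate block. With the 2 highest against the 2 lowest libraries it was -0.31 for miR-128, -0.41 for miR-1271a, 0.030 for miR-126-3p, 0.15 for let-7g, -0.26 for miR-127 and -0.0075 for miR-25. The split at 8000 CPM gave -0.19 for miR-1271a, -0.091 for miR-95, 0.10 for let-7g and -0.13 for miR-127, and leaving out FOV_1 gave 0.12 for let-7g and -0.12 for miR-127. Without SUM it was -0.61 for miR-1271a, 0.71 for miR-486-5p, -0.28 for miR-99a, 0.012 for let-7c, -0.18 for miR-127, -0.54 for miR-199b-5p, -0.51 for miR-374a, -0.17 for miR-93, -1.38 for miR-34a, -1.05 for miR-137, -1.03 for miR-19a and -0.56 for miR-199a-3p. On recovered reads edgeR gave -0.13 for miR-34a, and DESeq2 gave -0.016 for miR-99a, -0.081 for miR-182, -0.073 for miR-127, -0.22 for miR-34a and -0.092 for miR-199a-3p. Leaving out single libraries turned 10 uncalled miRNAs, with ranges of -0.15 to 0.56 (miR-1271a), -0.53 to 0.078 (miR-378), -0.73 to 0.33 (miR-486-5p), -0.13 to 0.86 (miR-146b-5p), -0.11 to 0.36 (miR-99a), -0.54 to 0.042 (miR-192), -0.16 to 0.26 (miR-182), -0.20 to 0.13 (let-7g), -0.12 to 0.31 (miR-127) and -0.13 to 0.54 (miR-199a-3p).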

Other observations

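A few miRNAs outside the rule for named miRNAs, chosen after their values were seen, sat just short of the threshold and passed under several alternatives. MiR-181b, abundant in brain and lymphoid cells, measured 242 to 912 CPM in miR-9a-high libraries (median 574) and 104 to 340.3 CPM in miR-9a-low libraries (median 238), with a log2 FC of 1.51 (SE 0.43, adjusted p = 0.0512 by limma). Its difference was above 0 in each season, at 0.76 (SAN), 1.27 (SOV), 2.93 (SUM) and 0.58 (FOV). MiR-107a, of a family that lies within pantothenate kinase genes, measured 782 to 6316 CPM (median 2188) against 955 to 1754 CPM (median 1069), with a log2 FC of 1.17 (SE 0.35, adjusted p = 0.0525) and a difference above 0 in each season. MiR-488, a neural miRNA, had 13 reads in 5 miR-9a-high libraries and 0 in the low class (adjusted p = 0.0512).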
